A study of Mus musculus with 8 samples.

Results

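The 10 genes described here encode the light-detection machinery of mouse cone photoreceptors: the opsins Opn1sw and Opn1mw, the transducin subunits Gnat2, Gnb3 and Gngt2, the phosphodiesterase subunits Pde6c and Pde6h, the channel subunits Cnga3 and Cngb3, and the arrestin Arr3. They were chosen by symbol, as the cone-side components of phototransduction, from the 57010 gene identifiers of a retinal RNA-seq count table. Each of the 10 symbols matched 1 identifier, and all 10 genes were kept by the filter on low counts, which left 20457 genes for testing. The retinas were wild-type (WT) at postnatal day 15 (P15) or rd10 at the ages P15, P18 and P21, which gave 4 groups of 2 libraries. Each library was made from whole retinal tissue and is called a retina below. The sample titles do not give the number of retinas in a library. The rd10 mice were homozygous for the rd10 allele of Pde6b, which encodes a catalytic subunit of the rod phosphodiesterase, so that the mutated gene belongs to rods and every cell of the animal carries the mutation. The methods name WT littermates as the controls of the rd10 mice. They also describe WT C57BL/6J mice that were purchased, and the labels do not state the source of the 2 WT libraries. Because WT retina was taken at P15 only, genotype and age change together in any comparison of rd10 P18 or rd10 P21 with WT. For the same reason, a change with age that WT retina shares cannot be told apart from one particular to rd10. P-values of the count tests rest on the spread between the 2 libraries of a group, pooled over the 4 groups in 1 fit. The spread of a group therefore enters the p-values of comparisons that leave it out.

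Cones carry vision in daylight and colour vision. In a cone, light activates an opsin, the opsin activates the trimeric G protein transducin, and transducin releases the catalytic phosphodiesterase subunits from their inhibitory subunit. The enzyme then breaks down cyclic GMP, the cyclic nucleotide-gated channel closes, and arrestin binds the phosphorylated opsin to end the response. Rods use a parallel set of proteins encoded by other genes, and in retinal degenerations that start from a rod gene the cones are usually affected after the rods. Most mouse cones make both opsins, in proportions that vary across the retina.

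The promoters of Arr3, Opn1sw, Opn1mw and Gnat2, 4 of the 6 members with a promoter at hand, are shown first. They differ in the letters marked below. Each is the 250 bases before the transcription start in RefSeq (build GRCm38.p6), read 5′ to 3′ on the strand of the gene. Capitals mark 3 motifs searched on both strands: TAATC or GATTA, the core bound by the photoreceptor homeodomain factors CRX and OTX, AGGTCA or TGACCT, a nuclear receptor hexamer, and TATAAA or TTTATA, the TATA box. The windows lie at chrX:100605247-100605496 for Arr3, chr6:29380514-29380763 (minus strand) for Opn1sw, chrX:74127216-74127465 for Opn1mw and chr3:108092816-108093065 for Gnat2.
Arr3: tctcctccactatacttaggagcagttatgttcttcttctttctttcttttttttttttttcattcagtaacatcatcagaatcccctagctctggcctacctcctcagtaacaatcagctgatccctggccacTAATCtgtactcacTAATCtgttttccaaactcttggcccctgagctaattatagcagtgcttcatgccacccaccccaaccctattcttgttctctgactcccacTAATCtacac
Opn1sw: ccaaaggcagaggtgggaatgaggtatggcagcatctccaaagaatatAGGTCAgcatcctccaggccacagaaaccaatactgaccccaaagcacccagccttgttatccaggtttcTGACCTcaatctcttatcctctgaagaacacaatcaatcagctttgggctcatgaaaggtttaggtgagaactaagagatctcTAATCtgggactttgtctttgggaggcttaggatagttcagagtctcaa
Opn1mw: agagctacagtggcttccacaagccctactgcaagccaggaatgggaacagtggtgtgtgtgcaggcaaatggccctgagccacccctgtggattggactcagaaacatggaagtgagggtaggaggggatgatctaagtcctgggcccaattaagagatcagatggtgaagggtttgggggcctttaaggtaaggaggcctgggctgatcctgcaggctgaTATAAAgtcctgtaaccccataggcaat
Gnat2: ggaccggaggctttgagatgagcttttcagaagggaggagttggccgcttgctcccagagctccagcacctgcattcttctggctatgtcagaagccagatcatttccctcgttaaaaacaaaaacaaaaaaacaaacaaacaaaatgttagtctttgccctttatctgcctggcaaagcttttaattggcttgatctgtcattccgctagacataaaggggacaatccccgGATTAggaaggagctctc

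The Arr3 window held the CRX/OTX core 3 times, at 116, 102 and 10 bases before the start. The Opn1sw window held it once at 49 bases before the start and the hexamer at 202 and 132 bases, the Gnat2 window held the core at 18 bases, and the Opn1mw window held a TATA box at 28 bases and no CRX/OTX core. RefSeq promoters were at hand for 6 of the 10 genes in 7 windows, of which 3 held the CRX/OTX core, 1 the hexamer and 2 the TATA box. Among 32851 mouse promoter windows of the same length, 19.8% held the CRX/OTX core, 14.0% the hexamer and 12.4% the TATA box on either strand. The 3 motifs do not overlap in these windows, the letters TAATC were chosen after the promoters had been read, and a match is a description of letters only. The windows of Opn1sw and Gnat2 lie inside the longer spans that GENCODE M21 gives these genes.

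Across the 8 libraries the total count lay between 28076947 and 33724562, and a member had between 447 counts (Cnga3) and 19910 counts (Gnb3) in a library. Counts of Y-linked genes and Xist showed both WT P15 retinas to be female and both rd10 P15 retinas to be male, while rd10 P18 and rd10 P21 each held a male replicate 1 and a female replicate 2. Sex and genotype therefore cannot be told apart at P15. The 2 rd10 P18 libraries stood apart from each other, with a chi-square of 103 per gene between them beside 24.5 to 39.4 in the other groups. The rd10 allele is a point change, so the Pde6b count does not check the genotype; the log2 fold change of Pde6b in rd10 P15 against WT P15 was -0.42 (SE 0.18, adjusted p = 0.404, edgeR quasi-likelihood test with Benjamini-Hochberg adjustment). Rod markers were abundant in all libraries, at a summed 20232 to 21590 CPM (counts scaled to library size) in WT. In rd10 they summed to 16159 to 16827 CPM at P15, 12904 to 14636 at P18 and 9388 to 11329 at P21. Lens markers summed to at most 3.67 CPM. Retinal pigment epithelium markers differed within and between groups, at 21.4 and 86.1 CPM in the 2 WT retinas, with rd10 values of 119 and 153 at P15, 22.0 and 11.5 at P18 and 18.8 and 19.9 at P21. All levels below are CPM scaled by TMM factors, the trimmed-mean normalization of edgeR, and describe 1 gene across libraries, since CPM are not divided by gene length. Pairs of values are given as replicate 1 and replicate 2.

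All 10 cone genes had lower levels in rd10 than in WT retina at P15, and all 10 had higher levels in rd10 at P21 than at P15, with the largest differences both times in Arr3. A gene was called when its adjusted p was under 0.05 and its log2 fold change was beyond 1 in either direction. In rd10 P15 against WT P15, 1 of the 10 genes was called, Arr3, which encodes cone arrestin and fell 3.27-fold, where 0.0929% of all tested genes were called lower. In rd10 P21 against rd10 P15, 1 of the 10 was called, again Arr3, which rose 2.82-fold, where 0.298% of all tested genes were called higher. These 2 comparisons share the rd10 P15 libraries, and a low value there moves them in opposite directions. Both rd10 P15 libraries lay below both WT P15 libraries for all 10 members, a pattern that 24.9% of all tested genes showed. The other 9 genes were not called in either comparison, and their values are given as measured. In whole-retina RNA, fewer cones and less RNA per cone cannot be told apart.

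**Figure D1:**
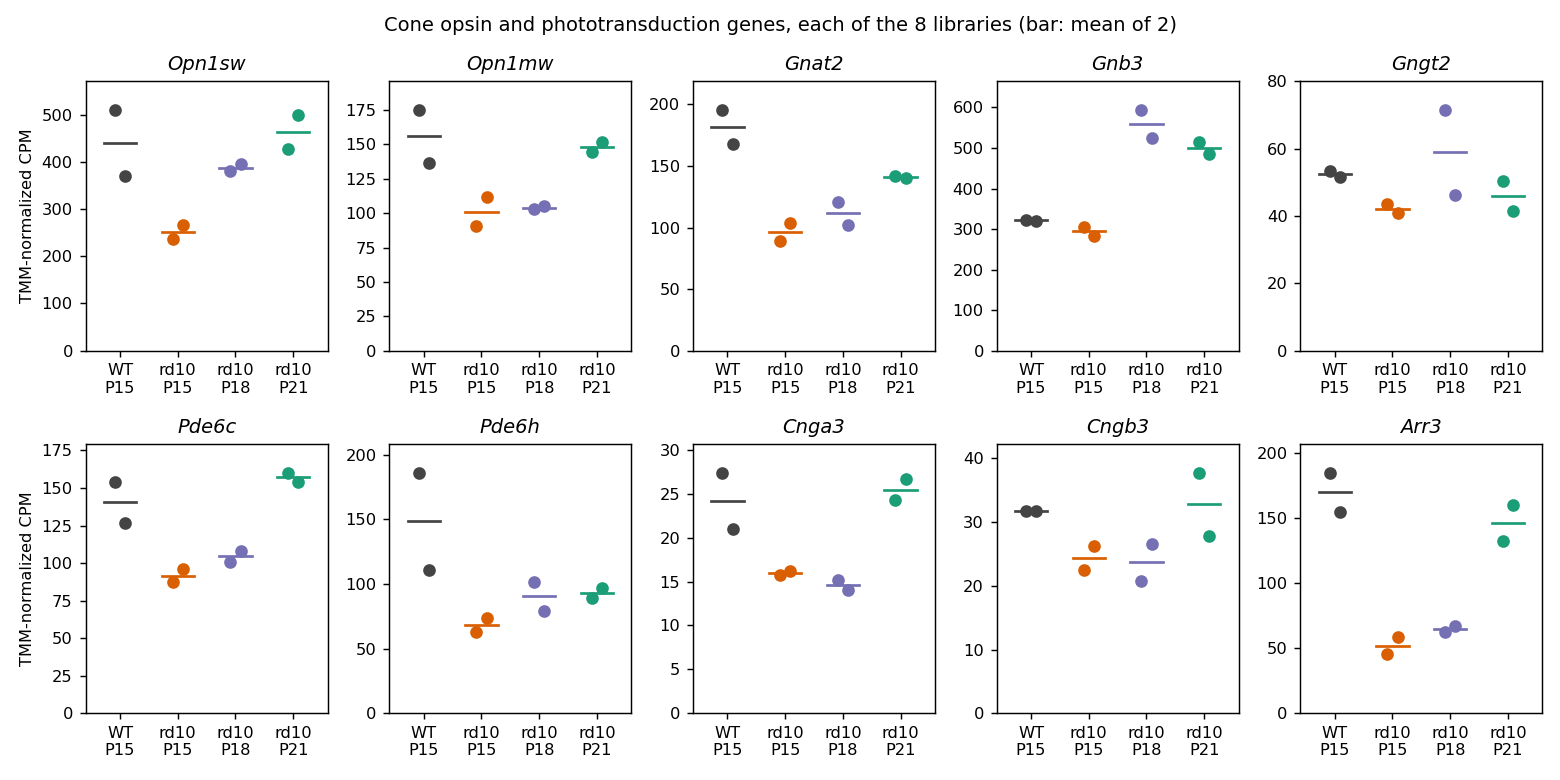
TMM-normalized CPM (y axis, linear from 0, a separate scale for each gene) of the 10 cone genes in the 2 libraries of each group (x axis); points are libraries and bars are means of 2. Both rd10 P15 points lie below both WT P15 points in all 10 panels, with the largest fold for Arr3 (45.3 and 58.7 against 185 and 155 CPM), and the rd10 P18 points of Gnb3 (594 and 524 CPM) lie above its WT P15 points (322 and 321).

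Arr3 (ENSMUSG00000060890, chrX:100605497-100618493 on the plus strand in GRCm38 and GENCODE M21) is the arrestin that quenches activated cone opsin. It had 185 and 155 CPM in the 2 WT retinas, with rd10 values of 45.3 and 58.7 at P15, 62.3 and 67.3 at P18 and 132 and 160 at P21. The order of the groups was therefore rd10 P15, rd10 P18, rd10 P21 and WT P15, in which rd10 P21 and WT P15 overlapped and the others did not. Against WT P15 the log2 fold change was -1.71 at P15 (SE 0.18, adjusted p = 0.0150), -1.39 at P18 (SE 0.18, adjusted p = 0.0150) and -0.22 at P21 (SE 0.17, adjusted p = 0.711; edgeR, Benjamini-Hochberg, for each). By mean CPM, rd10 retina held 30.6% of the WT P15 level at P15, 38.1% at P18 and 86.0% at P21. Within rd10 the log2 difference was 0.32 from P15 to P18 (adjusted p = 0.493), 1.18 from P18 to P21 (adjusted p = 0.144) and 1.49 from P15 to P21 (SE 0.18, adjusted p = 0.0193), all by edgeR.

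The Arr3 calls did not hold in every fit. By DESeq2 the adjusted p was 8.35e-13 at P15, 9.47e-09 at P18 and 6.21e-10 for rd10 P21 against rd10 P15. With a term for sex the log2 fold change at P15 was -1.52 and its adjusted p was 0.131 (edgeR). That term took the calls over all genes from 47 to 4. Arr3 calls were also lost in some fits without a single library, which leave 1 library in a group. In each of those fits the calls over all genes fell as well. Without WT P15 replicate 1, rd10 P15 replicate 1 or rd10 P15 replicate 2, the log2 fold change at P15 was -1.58, -1.53 or -1.91, not called. The fall at P18 was not called without WT P15 replicate 1 (-1.25). The rise from P15 to P21 was not called without rd10 P15 replicate 1 (1.32) or replicate 2 (1.69). Arr3 is X-linked. In the groups that held both sexes its male and female libraries had 62.3 and 67.3 CPM at P18 and 132 and 160 CPM at P21.

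Opn1sw (ENSMUSG00000058831, chr6:29376671-29388468, minus strand) encodes the short-wavelength opsin. Its level was 510 and 369 CPM in the 2 WT retinas, with rd10 values of 237 and 265 at P15, 380 and 396 at P18 and 428 and 500 at P21. Both rd10 P15 libraries lay below the other 6, and the WT P15 libraries, which were far apart, spanned the range of the rd10 P18 and rd10 P21 libraries. The log2 fold change was -0.81 in rd10 P15 against WT P15 (SE 0.18, adjusted p = 0.110) and 0.88 in rd10 P21 against rd10 P15 (SE 0.18, adjusted p = 0.0965), neither of them called by edgeR. By mean CPM the rd10 groups held 57.2%, 88.2% and 105% of the WT P15 level at P15, P18 and P21. Opn1sw exons share 397 of 2557 bases with exons of Calu on the opposite strand, and whether the authors' counting used strand is not given in the sources used here. Calu had 83.3 to 148 CPM in the 8 libraries.

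Opn1mw (ENSMUSG00000031394, chrX:74127464-74150760, plus strand) encodes the middle-wavelength opsin. It had 175 and 137 CPM in the 2 WT retinas, with rd10 values of 90.4 and 112 at P15, 103 and 105 at P18 and 145 and 152 at P21. The rd10 P15 and rd10 P18 libraries lay in 1 low range, and the rd10 P21 libraries were inside the WT P15 range. Its log2 fold change was -0.63 (SE 0.16, adjusted p = 0.166) in rd10 P15 against WT P15, 0.043 (adjusted p = 0.944) from rd10 P15 to P18 and 0.51 (adjusted p = 0.431) from rd10 P18 to P21, with no call by edgeR. Opn1mw is X-linked as well, and its male and female libraries had 103 and 105 CPM at P18 and 145 and 152 at P21.

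The balance of the opsins was measured within each library as the Opn1sw share of all cone opsin counts, which does not depend on scaling between libraries. The share was 74.4% (95% exact binomial interval 73.8 to 75.1) and 73.0% (72.3 to 73.7) in the 2 WT retinas, and 72.4% (71.5 to 73.3) and 70.4% (69.5 to 71.3) at P15 in rd10. It was 78.7% (78.0 to 79.3) and 79.0% (78.3 to 79.6) at P18, and 74.7% (74.1 to 75.3) and 76.7% (76.1 to 77.3) at P21. The intervals cover counting error only. Both rd10 P18 libraries lay above the other 6, and both rd10 P15 libraries lay below the other 6. The mean share was 5.13 percentage points higher in rd10 P18 than in WT P15 and 7.44 points higher than in rd10 P15, and the exact two-sided permutation p was 0.333 for each pair of groups, the smallest that 2 libraries against 2 allow. That pairwise test cannot reach 0.05 here.

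**Figure D2:**
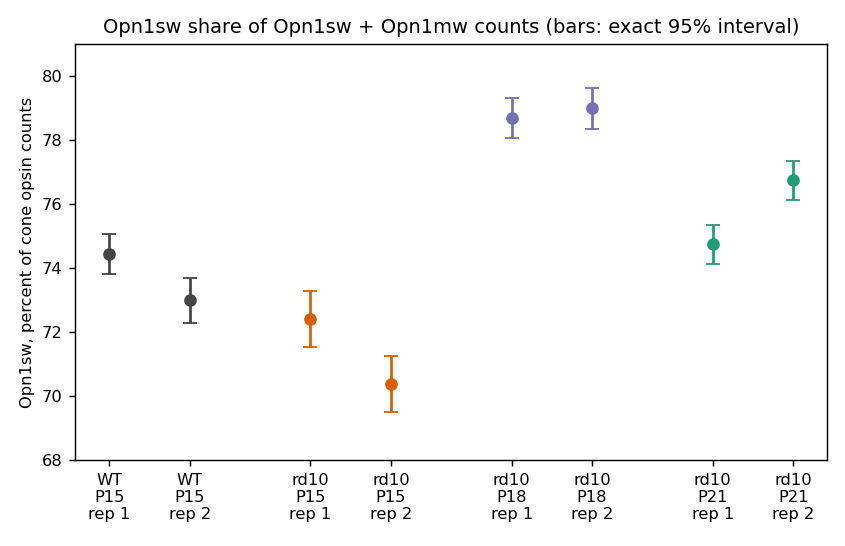
Share of Opn1sw among Opn1sw plus Opn1mw counts (y axis, percent, starting at 68) in each library (x axis); bars are exact 95% binomial intervals for counting error. The rd10 P18 libraries, at 78.7% and 79.0%, are the highest, and the rd10 P15 libraries, at 72.4% and 70.4%, are the lowest.

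Of the transducin genes, Gnat2 (ENSMUSG00000009108, chr3:108092789-108101432), the alpha subunit that carries the signal from opsin to phosphodiesterase, followed the same order as Opn1mw. It had 195 and 168 CPM in the 2 WT retinas, with rd10 values of 89.1 and 103 at P15, 121 and 102 at P18 and 142 and 140 at P21. All 6 rd10 libraries lay below both WT P15 libraries. Its log2 fold change against WT P15 was -0.92 (SE 0.15, adjusted p = 0.0546) at P15, -0.71 (SE 0.15, adjusted p = 0.0602) at P18 and -0.37 (SE 0.15, adjusted p = 0.388) at P21, by edgeR. The rd10 means were 53.0%, 61.3% and 77.4% of the WT P15 mean.

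Gnb3 (ENSMUSG00000023439, chr6:124834240-124840275, minus strand) encodes a transducin beta subunit that cones share with ON bipolar cells, so its RNA in whole retina does not come from cones alone. Gnb3 had 322 and 321 CPM in the 2 WT retinas, with rd10 values of 305 and 283 at P15, 594 and 524 at P18 and 516 and 485 at P21. The 4 libraries of rd10 P18 and rd10 P21 lay above all 4 libraries of P15. Its log2 fold change was 0.80 in rd10 P18 against WT P15 (SE 0.13, adjusted p = 0.0291) and 0.93 in rd10 P18 against rd10 P15 (SE 0.13, adjusted p = 0.0312), past the adjusted p by edgeR and under the fold threshold of 1. Over the alternatives the adjusted p of the first ran from 3.04e-05 (DESeq2) to 0.217 (without WT P15 replicate 1), and it was 0.128 with only the 4 libraries compared. Without rd10 P18 replicate 2, or with library size as the only scaling, the second was 1.01 and was called, and over all alternatives its adjusted p ran from 7.12e-07 (DESeq2) to 0.275 (without rd10 P15 replicate 2). The bipolar markers summed to 1361 to 1396 CPM in WT, and in rd10 to 1362 to 1846 at P15, 1212 to 1524 at P18 and 1689 to 1836 at P21, and their part in the Gnb3 values was not tested.

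Gngt2 (ENSMUSG00000038811, chr11:95837216-95845734), the gamma subunit, had 53.3 and 51.5 CPM in the 2 WT retinas, with rd10 values of 43.5 and 40.8 at P15, 71.5 and 46.3 at P18 and 50.4 and 41.3 at P21. Its rd10 P18 libraries were further apart than any groups' means, and its log2 fold changes lay between -0.36 and 0.48 in the 6 comparisons, none of them called by edgeR. Gngt2 exons share 234 of 1877 bases with Abi3 on the opposite strand, a gene expressed in microglia. Abi3 had 3.56 to 4.72 CPM in the 4 P15 libraries, 6.65 and 9.99 at P18 and 12.7 and 8.11 at P21, while microglia markers summed to 66.1 to 69.1 CPM in WT, and in rd10 to 85.9 to 91.6 at P15, 178 to 193 at P18 and 156 to 271 at P21. The part of these reads in the Gngt2 count was not tested.

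Of the phosphodiesterase genes, Pde6c (ENSMUSG00000024992, chr19:38132781-38183958), the cone catalytic subunit that hydrolyses cyclic GMP, had 154 and 127 CPM in the 2 WT retinas, with rd10 values of 87.3 and 96.1 at P15, 101 and 108 at P18 and 160 and 154 at P21. Its rd10 P21 mean was 112% of the WT P15 mean after 65.2% at P15 and 74.4% at P18. The log2 fold change was -0.62 (SE 0.14, adjusted p = 0.119) in rd10 P15 against WT P15 and 0.78 (SE 0.14, adjusted p = 0.0694) in rd10 P21 against rd10 P15, by edgeR.

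Pde6h (ENSMUSG00000064330, chr6:136923832-136968865), the inhibitory subunit that holds the enzyme inactive in the dark, had 186 and 111 CPM in the 2 WT retinas, with rd10 values of 63.1 and 73.5 at P15, 102 and 79.0 at P18 and 89.2 and 96.8 at P21. All 6 rd10 libraries lay below both WT P15 libraries, which were themselves far apart, and the P21 mean was 62.6% of WT P15. The log2 fold change in rd10 P15 against WT P15 was -1.12 (SE 0.24, adjusted p = 0.107) by edgeR, which is not a call, and -1.12 (adjusted p = 0.00207) by DESeq2, which is. Over the alternatives it ran from -1.45 to -0.70, the latter without WT P15 replicate 1, and the adjusted p ran from 0.00207 to 0.461. Pde6h exons share 136 of 7846 bases with Arhgdib on the opposite strand, which had 2.89 to 12.5 CPM.

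Of the channel genes, Cnga3 (ENSMUSG00000026114, chr1:37214434-37263384), the subunit that binds cyclic GMP and forms the pore, had 27.4 and 20.98 CPM in the 2 WT retinas, with rd10 values of 15.8 and 16.2 at P15, 15.2 and 14.1 at P18 and 24.3 and 26.6 at P21. Cngb3 (ENSMUSG00000056494, chr4:19280850-19510623), the modulatory subunit, had 31.7 and 31.8 CPM in the 2 WT retinas, with rd10 values of 22.5 and 26.2 at P15, 20.8 and 26.6 at P18 and 37.8 and 27.9 at P21. Both had their lowest mean at rd10 P18, and 105% and 103% of the WT P15 mean at rd10 P21. Neither gene was called in any comparison by edgeR or DESeq2, and their unadjusted p values enter the counts over all members. The log2 fold change of Cnga3 was -0.73 (SE 0.19, adjusted p = 0.104) in rd10 P18 against WT P15, and that of Cngb3 was -0.43 (SE 0.21, adjusted p = 0.339).

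Counted over the 10 members, rd10 P15 against WT P15 had the 1 call given above. All 10 log2 fold changes were negative, with a median of -0.62 beside -0.01 over all genes, and 7 of 10 had an unadjusted p under 0.05 with a negative sign, as did 5.72% of all genes. Pigment epithelium markers were higher and rod markers lower in rd10 P15 than in WT P15, and the sexes were opposite. The part of each of these in the values was not tested.

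In rd10 P18 against WT P15, 1 member was called lower, Arr3, where 0.332% of all genes were, and 7 members had both libraries below both WT P15 libraries, as did 22.9% of all genes. The median log2 fold change of the members was -0.50. In rd10 P21 against WT P15 no member was called by edgeR or by DESeq2, 3 members had an unadjusted p under 0.05 in edgeR, 1 of them higher (Gnb3, beside 7.25% of all genes) and 2 lower (Gnat2 and Pde6h, beside 4.56% of all genes), and 0.142% of all genes were called lower. The median was -0.01, 5 members were positive and 5 negative, and 3 members had non-overlapping lower libraries beside 24.2% of all genes. These 3 comparisons share the WT P15 libraries.

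Within rd10, no member was called from P15 to P18 by edgeR or DESeq2, with 3 members higher at an unadjusted p under 0.05 in edgeR, as were 7.43% of all genes, while 0.523% of all genes were called higher. Non-overlapping higher libraries were found for 6 members and 21.9% of all genes. From P15 to P21, 1 member was called higher, all 10 log2 fold changes were positive with a median of 0.61 beside 0.01 over all genes, and 7 of 10 had an unadjusted p under 0.05 with a positive sign, as did 7.39% of all genes. Both libraries of P21 lay above both of P15 for 9 members and 26% of all genes, the exception being Gngt2. Rod markers were at 16159 to 16827 CPM in rd10 P15 and 9388 to 11329 in rd10 P21. Pigment epithelium markers were at 119 to 153 CPM in rd10 P15 and 18.8 to 19.9 in rd10 P21. Müller glia markers were at 2899 to 3461 and 3830 to 3974 CPM, and the sexes went from both male to 1 of each. The part of each of these in the differences was not tested. From P18 to P21 no member was called by edgeR and 1, Arr3, by DESeq2 (adjusted p = 1.78e-05, with a highest value of 0.654 over the alternatives), 4 members were higher at an unadjusted p under 0.05 in edgeR, as were 4.81% of all genes, 0.00489% of all genes were called higher, and 7 members and 21% of all genes had non-overlapping higher libraries. The comparisons among rd10 ages share libraries with each other. Without rd10 P18 replicate 2, the count of all genes called, in either direction, went from 121 to 977 between P15 and P18 and from 4 to 963 between P18 and P21, and 1 member was called in each.

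A straight-line age trend over the 6 rd10 libraries was fitted as a further reading of the same question. No member was called by edgeR, 1 was called by DESeq2 (Arr3), 7 had an unadjusted p under 0.05 with a positive slope in edgeR, as did 5.05% of all genes, and 0.0244% of all genes were called with a rising slope. The fitted change over the 6 days from P15 to P21 was 1.49 on the log2 scale for Arr3 (SE 0.23, adjusted p = 0.110), 0.88 for Opn1sw (SE 0.20, adjusted p = 0.239) and 0.78 for Pde6c (SE 0.16, adjusted p = 0.205), by edgeR.

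**Figure D3:**
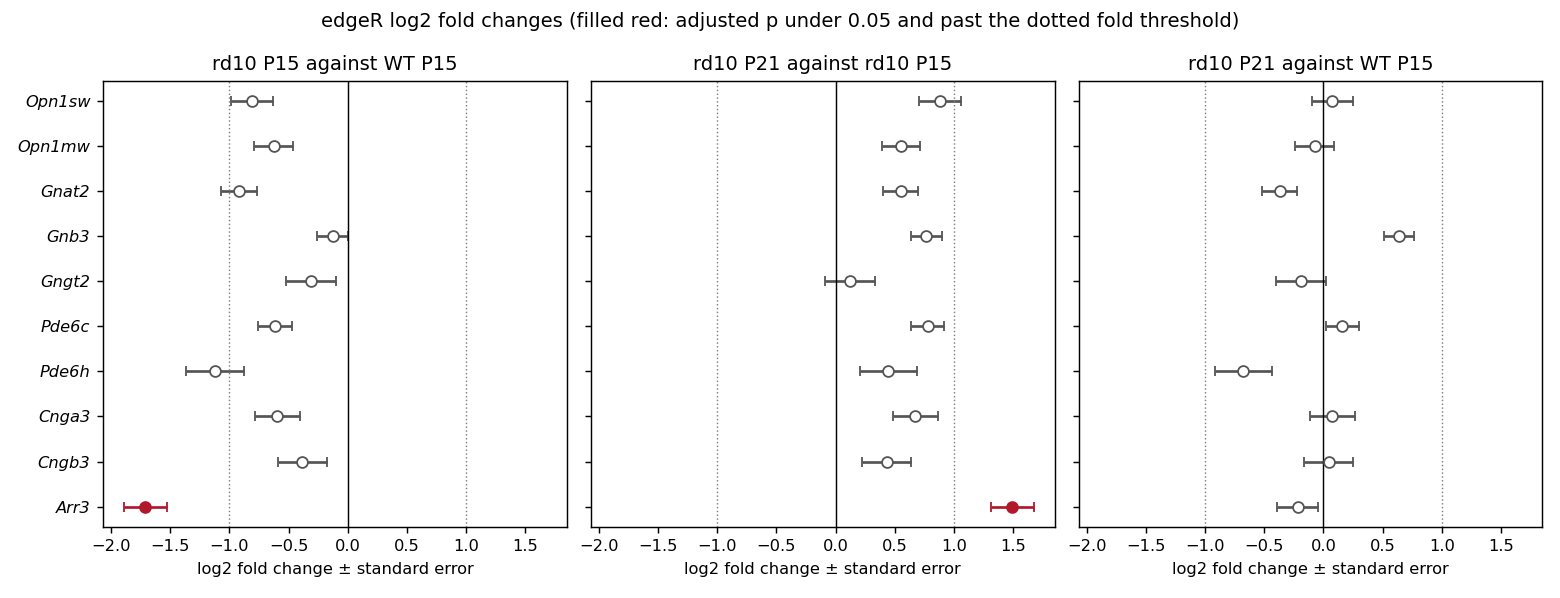
edgeR log2 fold changes (x axis) with standard errors for the 10 cone genes (y axis) in 3 comparisons; filled red points are called, and dotted lines mark the fold threshold of 1. In rd10 P15 against WT P15 all points lie left of 0 with Arr3 at -1.71, in rd10 P21 against rd10 P15 all lie right of 0 with Arr3 at 1.49, and in rd10 P21 against WT P15 they scatter around 0 from -0.68 (Pde6h) to 0.64 (Gnb3). The panels share libraries.

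Relative to the matching rod genes, cone counts were higher in rd10 P21 than in rd10 P15 for each of the 8 pairs compared. The rod genes were themselves lower, with 9 of 9 listed counterparts negative and a median log2 fold change of -0.59 in that comparison. Each member other than the opsins was divided by the gene that does its work in rods (Gnat1, Gnb1, Gngt1, Pde6a, Pde6g, Cnga1, Cngb1 and Sag), within a library and per 1000 rod counts. Gnat2 stood at 17.7 and 15.3 per 1000 Gnat1 counts in the 2 WT retinas, with rd10 values of 11.2 and 12.4 at P15, 18.2 and 15.7 at P18 and 31.7 and 25.5 at P21, with rd10 P15 below and rd10 P21 above all other libraries.

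The lowest ratio of rd10 P15 to WT P15 was that of Arr3. Per 1000 counts of Sag, the rod arrestin, Arr3 had 51.0 and 51.0 in the 2 WT retinas, with rd10 values of 14.4 and 17.2 at P15, 22.5 and 25.6 at P18 and 60.8 and 73.8 at P21. The rd10 P15 mean was 0.310 times that of WT P15, so the low Arr3 level of rd10 P15 was low beside the rod arrestin too. Gnb3 per 1000 counts of Gnb1 had 76.4 and 99.0 in the 2 WT retinas, with rd10 values of 99.1 and 87.8 at P15, 313 and 277 at P18 and 224 and 254 at P21. The 4 later libraries were above all P15 libraries. Because Gnb3 is shared with ON bipolar cells, this ratio does not compare cones with rods alone. Whether the Gnb1 counts came from rods alone was not tested.

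The ratio of the channel pore subunits did not follow that order. Cnga3 per 1000 counts of Cnga1 stood at 29.5 and 55.0 in the 2 WT retinas, with rd10 values of 52.0 and 51.0 at P15, 25.2 and 29.3 at P18 and 136 and 130 at P21. The rd10 P18 ratios were the lowest and the rd10 P21 ratios the highest by a wide margin. The denominator moved too. Cnga1 had 927 and 382 CPM in the 2 WT retinas. Its rd10 values were 303 and 318 CPM at P15, 600 and 481 at P18 and 178 and 204 at P21. Pde6h per 1000 counts of Pde6g stood at 103 and 68.2 in WT, and in rd10 at 43.9 and 45.1, then 68.8 and 76.8, then 124 and 99.6 over the 3 ages, and it was the pair whose rd10 P21 and WT P15 libraries overlapped. For Pde6c against Pde6a the rd10 ratio was 38.6 and 39.0 at P15 and 101 and 68.2 at P21, beside 42.1 and 40.8 in WT. The remaining pairs, Gngt2 with Gngt1 and Cngb3 with Cngb1, had their highest group mean at rd10 P21 too.

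Over the 8 ratios, rd10 P15 was below WT P15 without overlap for 5 and overlapped it for 3, with a median ratio of group means of 0.924. In rd10 P21 the ratio was above WT P15 without overlap for 7 and above rd10 P15 for 8, with median ratios of 1.99 and 2.47. Such ratios were not taken for genes outside the 8 pairs, so no share over all genes stands beside these counts. A gene with an unchanged level would also rise over a falling denominator. The denominators differed as well: all 9 rod genes listed as counterparts, Pde6b included, had negative log2 fold changes in rd10 P21 against WT P15, with a median of -1.03, and 2 of them fell, Gnat1 (-1.15, adjusted p = 0.0332) and Cngb1 (-1.06, adjusted p = 0.0445), by edgeR, where 0.142% of all genes were called lower. DESeq2 called 5 of the 9 lower, beside 571 of all genes called in either direction. The exact two-sided permutation p of a ratio cannot go below 0.333 with 2 libraries against 2.

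**Figure D4:**
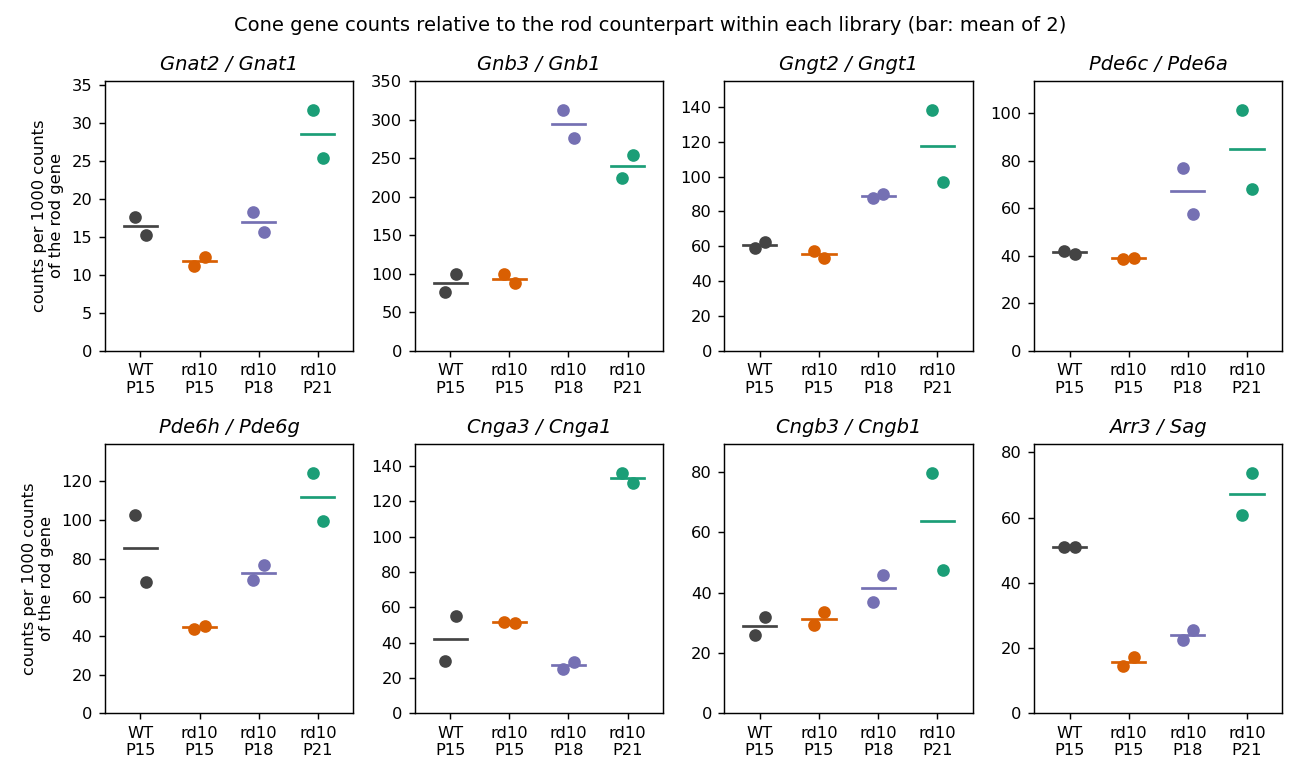
Counts of 8 cone genes per 1000 counts of its rod counterpart (y axis, linear from 0, a separate scale for each pair) in the 2 libraries of each group (x axis); points are libraries and bars are means of 2. Both rd10 P21 points lie above both rd10 P15 points in all 8 panels, and Arr3 per Sag is the panel in which rd10 P15 (14.4 and 17.2) is the lowest fraction of WT P15 (51.0 and 51.0).

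Other cone genes, a list of transcription factors and membrane proteins of cones, gave no call. Of 9 listed, 8 were tested, and 0 were called by edgeR or DESeq2 in any of the 7 comparisons. In each, 1 or 2 of them had an unadjusted p under 0.05 in edgeR, as did 1918 to 3563 of the 20457 tested genes. Sall3, a transcription factor of cone development, had a log2 fold change of -0.81 (SE 0.35, adjusted p = 0.394) in rd10 P15 against WT P15, and Ccdc136 had -0.39 (SE 0.13, adjusted p = 0.259) there and 0.66 (SE 0.13, adjusted p = 0.0810) in rd10 P21 against rd10 P15. Thrb, the thyroid hormone receptor that patterns cone opsins, had -0.69 (SE 0.17, adjusted p = 0.0851) in rd10 P18 against WT P15.

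The 14 genes of response shutoff and calcium feedback, many of them shared by rods and cones, gave 1 call against WT P15 in rd10 P15, then 6 at P18 and 2 at P21, all lower, where 0.0929%, 0.332% and 0.142% of all genes were called lower. DESeq2 called 1, 7 and 3 of them lower, beside 422, 948 and 571 of all genes called in either direction. Guca1a, which encodes a calcium sensor that activates guanylate cyclase in both photoreceptor types, was called each time. Guca1a had 651 and 585 CPM in the 2 WT retinas, with rd10 values of 119 and 139 at P15, 259 and 196 at P18 and 203 and 261 at P21, with all 6 rd10 libraries below WT. Its log2 fold change was -2.26 (SE 0.20, adjusted p = 0.00684) at P15, -1.44 (SE 0.19, adjusted p = 0.0172) at P18 and -1.41 (SE 0.19, adjusted p = 0.0351) at P21, by edgeR. Besides Guca1a, the genes that fell in rd10 P18 with the smallest p were Rgs9bp, the anchor of the complex that switches transducin off (-1.33, adjusted p = 0.0222), Kcnv2, a potassium channel subunit of photoreceptors (-1.18, adjusted p = 0.0291), and Slc24a1, the rod sodium-calcium exchanger (-1.13, adjusted p = 0.0351), and in rd10 P21 the other was Guca1b (-1.37, adjusted p = 0.0455). Within rd10, 0 of the 14 were called from P15 to P21 by edgeR or DESeq2. At an unadjusted p under 0.05 in edgeR, 1 was higher, as were 7.39% of all genes, and 3 were lower, as were 5.44%.

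Genes whose course over the 8 libraries was most like that of each opsin were ranked by the root mean square difference of mean-centred log2 CPM among 12653 genes with a mean of at least 5 CPM. For Opn1sw these were Gm15850 (0.12), Dennd6b (0.12) and Ccna2 (0.13), against a median of 0.45. For Opn1mw they were Zmat1 (0.073), Sfi1 (0.082) and Helq (0.083), against a median of 0.40. Among the members, Pde6c was closest to both opsins, at rank 37 for Opn1sw and rank 9 for Opn1mw, while Arr3 was at rank 7949 and 8517. The measure is not scaled, so it counts the size of a change as well as its direction. By group means Arr3 had the same order as Opn1mw. Its log2 fold change was larger, at -1.71 beside -0.63 in rd10 P15 against WT P15. The 8 points are in 4 groups and share the scaling of their libraries, so the ranks describe these libraries.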

How the data were processed

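Whole-retina poly(A) RNA was sequenced on an Illumina NovaSeq instrument. The authors deposited raw read counts per mouse Ensembl gene, whole numbers without normalization, in 1 table of 57010 identifiers and 8 libraries. HISAT2 is named in the submitters' processing notes. The sources used here do not state its version, the counting tool, the strand setting, or the genome build and annotation of the counts. GENCODE M21 (build GRCm38) supplied symbols for 52029 identifiers and all gene positions, and RefSeq (GRCm38.p6) supplied promoters.

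Counts were tested with edgeR 4.0.16 in R 4.3.3: TMM scaling, filterByExpr (minimum count 10, minimum total 15), a quasi-likelihood fit with robust=TRUE over 8 libraries and 4 group means, and Benjamini-Hochberg adjustment over 20457 genes. A gene was called when its adjusted p was under 0.05 and its log2 fold change was beyond 1 in either direction. The study's own tool, DESeq2 (here 1.42.0), was an alternative, as were RLE factors, library size alone, no filter, only the libraries compared, a term for sex, a replicate block, no fold threshold and each library left out in turn. Within-library ratios and shares were compared by exact permutation tests (scipy 1.17.1). On simulated counts for rd10 P15 against WT P15 over 20457 genes, 150 of 200 genes changed by 1.5 on the log2 scale were called, with 11 unchanged ones. The members and lists were chosen with earlier results of these data known. A further planned rod gene and the ratios to it are not reported here. Named genes were all 10 members, up to 4 genes of each other list by smallest p, and the 3 genes most alike to each opsin.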

Additional observations from a re-analysis of the deposited data

Results flagged for a closer look

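The Arr3 level differed between 2 ages of rd10 retina by a test of the difference itself. Its log2 fold change in rd10 P21 against rd10 P15 was 1.49 (SE 0.18, adjusted p = 0.0193, edgeR with Benjamini-Hochberg adjustment). The log2 fold changes against the shared WT P15 libraries, -1.71 at P15 and -0.22 at P21, were therefore unequal. The value at P21 joins genotype and age, since no WT retina was taken at P21. Both rd10 P21 libraries lay above both rd10 P15 libraries. The difference was not called without rd10 P15 replicate 1 (1.32) or without rd10 P15 replicate 2 (1.69). Each of these fits leaves 1 library in that group, and in each the calls over all genes fell too. Over the 8 libraries left out in turn the log2 fold change ran from 1.32 to 1.69.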

How the results depend on the processing

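Of 1050 log2 fold changes of single members under the alternatives, 1018 kept their direction and their side of the call, 8 gained a call, 7 lost one and 17 changed sign, the latter in 11 of 70 results, all with a size of at most 0.18 in the reported fit. The reported fit called only Arr3, at P15 and P18 against WT P15 and in rd10 P21 against rd10 P15. Most of the 1018 were therefore not called in either fit, and their number is no measure of how stable a call was. The 7 lost calls were all of Arr3. With 2 libraries per group, leaving 1 out gives each ratio and share the value of the other library, both of which are printed above, so it says nothing about their stability. For rd10 P15 against WT P15 the count of called cone genes was 1, 2 with DESeq2 (Pde6h added) and 0 with a term for sex, and ranged from 0 to 1 over single libraries left out. For rd10 P18 against WT P15 it was 1, 2 with no fold threshold (Gnb3 added), and 0 to 1 over single libraries left out. For rd10 P18 against rd10 P15 it was 0, 1 with no fold threshold, 1 with library size alone, and 0 to 1 over single libraries left out, Gnb3 being called without rd10 P18 replicate 2. For rd10 P21 against rd10 P15 it was 1 and ranged from 0 to 1 over single libraries left out. For rd10 P21 against rd10 P18 it was 0, 1 with DESeq2, 1 with no filter and 0 to 1 over single libraries left out, called without rd10 P18 replicate 2. For the age trend it was 0, 1 with DESeq2 and 0 to 1 over single libraries left out, called without rd10 P18 replicate 1. For rd10 P21 against WT P15 it was 0 throughout. The count over all genes, in either direction, moved as well, and it fell in each fit that lost an Arr3 call. In rd10 P15 against WT P15 it was 47, with 422 by DESeq2, 4 with a term for sex and 206 with only the libraries compared. In rd10 P18 against WT P15 it was 303, and 386 with no fold threshold. In rd10 P18 against rd10 P15 it was 121, 126 with no fold threshold and 141 with library size alone. In rd10 P21 against rd10 P18 it was 4, 120 with DESeq2 and 19 with no filter. For the age trend it was 8, and 263 with DESeq2. The cause of these moves was not tested.

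Signs turned for Gngt2 with a term for sex in rd10 P18 against WT P15 (-0.090), and with library size alone for Opn1mw in rd10 P21 against WT P15 (0.039) and Cngb3 in rd10 P18 against rd10 P15 (0.035). Library size alone moved the median of all genes to 0.13 in rd10 P18 against WT P15 and 0.11 in rd10 P21 against WT P15. With single libraries left out, the log2 fold change crossed 0 for Opn1sw (-0.39 to 0.079) and Gngt2 (-0.18 to 0.45) in rd10 P18 against WT P15. It did so for Opn1sw (-0.14 to 0.34), Opn1mw (-0.24 to 0.13), Cnga3 (-0.11 to 0.29) and Cngb3 (-0.19 to 0.26) in rd10 P21 against WT P15, for Opn1mw (-0.10 to 0.20) and Cngb3 (-0.23 to 0.13) in rd10 P18 against rd10 P15, for Gngt2 in rd10 P21 against rd10 P15 (-0.029 to 0.26) and in the age trend (-0.054 to 0.38), and for Pde6h in rd10 P21 against rd10 P18 (-0.13 to 0.23).

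Replicate numbers did not pair the retinas: deviations of same-numbered libraries correlated at -0.02 to 0.06 between groups. A replicate block left the counts of called members at 1, 1, 0, 0, 1, 0 and 0 for the 6 comparisons and the trend. The fit has 4 residual degrees of freedom and the lowest member count was 447, and neither was varied.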
